A study of Chlorocebus aethiops with 12 samples.

Results

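ERRFI1, the Sprouty genes SPRY1, SPRY2 and SPRY4 and the SPRED genes SPRED1 and SPRED2 encode inhibitors of growth factor signalling. They were taken from one-colour microarrays by 6 RefSeq accessions, of 32379 distinct systematic names that the probes carry in all, with every non-control probe that carries one of these accessions. The gene symbols come from the list of accessions, because the files pair probes with accessions alone. Probes were matched for 5 of the 6 accessions, and the 5 held 8 of the 41000 probes. SPRY1 (NM_005841) is not analysed here. SPRED1 (NM_152594), SPRED2 (NM_181784) and ERRFI1 (NM_018948) had 2 probes each, and SPRY2 (NM_005842) and SPRY4 (NM_030964) had 1 each. Of the 8 probes, 7 were bright enough to be tested, among 31224 probes tested in all, where a probe had to clear the background on each of the 3 arrays in 1 group or more.

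Growth factor receptors of the tyrosine kinase class pass their signal to the small GTPase RAS and from there to the RAF, MEK and ERK kinases. Cells hold this relay in check with inhibitors, many of which the pathway itself induces. ERRFI1, also called MIG6, binds the kinase domain of the EGF receptor and blocks it. Its rat counterpart, known as gene 33, was described as a gene induced by glucocorticoids. SPRED1 and SPRED2 sit at the membrane and bring the RAS inactivator neurofibromin to RAS. SPRY2 and SPRY4 act between the receptors and RAF, and SPRY2 binds the ubiquitin ligase CBL and the adaptor GRB2.

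The RNA came from COS-1, an established African green monkey line of fibroblast-like cells derived from kidney, and was hybridised to probes designed on human sequences. The 4 groups were S211A+MDFIC cells given 100 nM dexamethasone (Dex), S211A+MDFIC cells given vehicle, S211A cells given 100 nM Dex and S211A cells given vehicle, each for 6 h. S211A is a phosphorylation mutant of the glucocorticoid receptor, the receptor that Dex activates, and MDFIC is the protein whose effect on this receptor the series examines. All 4 groups were transfected with S211A, so that no group without it or with the wild-type receptor is compared here. The cells were transfected in culture, and the share of cells that took up DNA is not given in the sources used here. Each group held 3 arrays, called biological replicates by the labels. Markers of the cell type, and other genes of the pathway, could not be matched to the accessions and are not analysed here.

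The 12 arrays lay on 3 slides. Slide 3 carried S211A+MDFIC Dex replicates 1, 2 and 3 with S211A+MDFIC vehicle replicate 3. Slide 2 carried the other two S211A+MDFIC vehicle arrays with S211A Dex replicates 2 and 3, and slide 1 carried S211A Dex replicate 1 with all 3 arrays of S211A vehicle. Between 77 and 81.3% of non-control spots were well above background on slides 2 and 3, and between 68.8 and 72.6% on slide 1. Within a group, pairs of arrays had a Pearson r between 0.986 and 0.996 across probes. Levels are given as log2 signal relative to the 75th percentile of the same array, so that 0 is the signal of a fairly bright probe. They are not comparable between probes. The precision is limited by having 3 arrays in each group.

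The first comparison asked which of these inhibitors Dex changed. At its brighter probe ERRFI1 RNA rose nearly 4-fold under Dex, both with MDFIC (3.95-fold) and without it (3.81-fold). Its dim probe did not pass the test in either kind of cells. SPRED1 fell slightly at its brighter probe, by 0.35 on the log2 scale with MDFIC and by 0.26 without it. SPRY2 fell by 0.28 with MDFIC, while it stood 0.03 higher under Dex without MDFIC and did not pass the test there. No change passed for SPRED2 or SPRY4. In S211A+MDFIC cells 1 of the 7 probes rose and 2 fell, where 5.87% of all probes rose and 3.68% fell. In S211A cells 1 of the 7 rose and 1 fell, where 4.13% of all probes rose and 2.05% fell. All values are averages over the cells of a culture, so that fewer responding cells and less RNA per cell cannot be told apart.

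**Figure D1:**
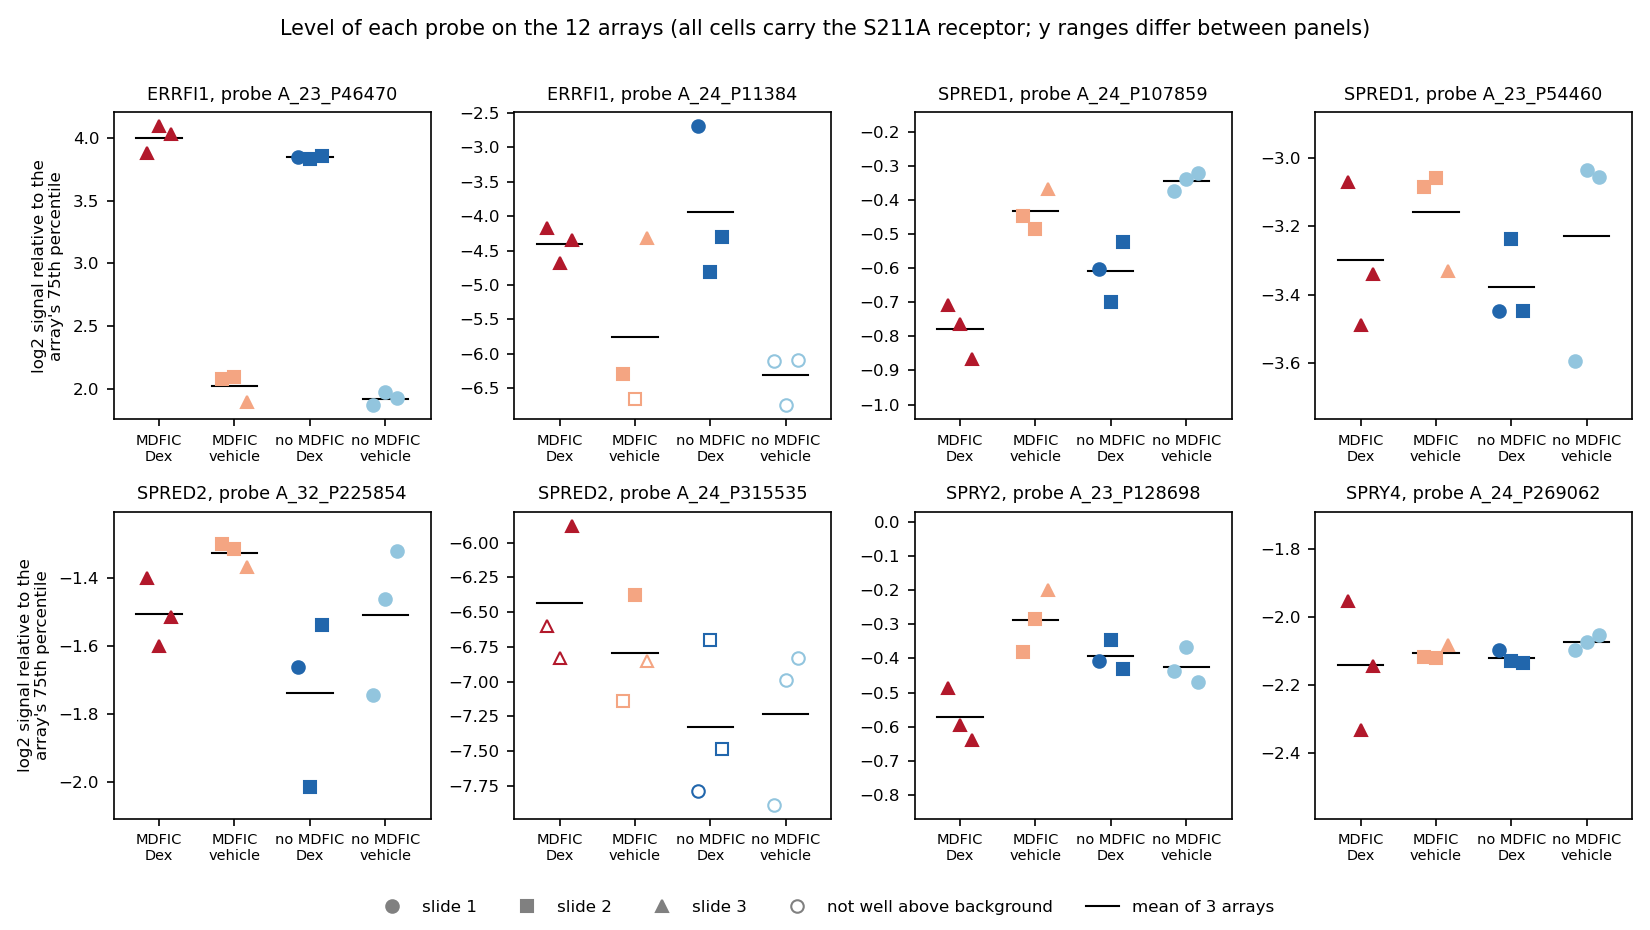
Level of the 8 probes on each array, as log2 signal relative to the array's 75th percentile, with the Dex group left of its vehicle group and the S211A+MDFIC groups left of the S211A groups. Each point is 1 array, its shape gives the slide, an open point is not well above background, and the line is the mean of 3 arrays. For ERRFI1 A_23_P46470 all 6 Dex arrays lie between 3.83 and 4.10 and all 6 vehicle arrays between 1.87 and 2.09.

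The brighter ERRFI1 probe, A_23_P46470, was well above background on all 12 arrays. Its levels were 3.88, 4.10 and 4.03 on the S211A+MDFIC Dex arrays, against 2.08, 2.09 and 1.89 on the S211A+MDFIC vehicle arrays. They were 3.85, 3.83 and 3.86 on the S211A Dex arrays, against 1.87, 1.97 and 1.92 on the S211A vehicle arrays. Every Dex array was thus higher than every vehicle array, and the gap was many times the spread within a group. The means were 4.003 ± 0.11 in S211A+MDFIC Dex and 2.02 ± 0.11 in S211A+MDFIC vehicle (SD, n = 3 each), a log2 difference of 1.98 (SE 0.07, limma adjusted p = 4.98e-07). In S211A cells they were 3.85 ± 0.02 under Dex and 1.92 ± 0.05 under vehicle (SD, n = 3 each), a log2 difference of 1.93 (SE 0.07, limma adjusted p = 6.63e-07). In the order of the 31224 probes from the largest rise down, this probe stood at place 35 in S211A+MDFIC cells and at place 52 in S211A cells.

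The rise at this probe was about as large within a slide. Between the 3 Dex arrays and the single vehicle array of S211A+MDFIC cells on slide 3, the log2 difference was 2.11 (limma adjusted p = 0.0454). Between the single Dex array and the 3 vehicle arrays of S211A cells on slide 1, it was 1.93 (limma adjusted p = 0.0207). Each of these fits assumes that the single array varies like the others. The processed signal itself, before any scaling, ran from 14009 to 17230 on the S211A+MDFIC Dex arrays and from 3860 to 4433 on the S211A+MDFIC vehicle arrays. It ran from 12704 to 13172 on the S211A Dex arrays and from 3170 to 3889 on the S211A vehicle arrays.

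The other ERRFI1 probe, A_24_P11384, was dim. Its levels were -4.17, -4.68 and -4.35 on the S211A+MDFIC Dex arrays, against -6.29, -6.65 and -4.32 on the S211A+MDFIC vehicle arrays. On the S211A Dex arrays they were -2.70, -4.81 and -4.31, against -6.10, -6.75 and -6.09 on the S211A vehicle arrays. In S211A cells the groups did not overlap, whereas in S211A+MDFIC cells vehicle replicate 3 lay among the Dex arrays. The probe was well above background on all 6 Dex arrays, on 2 of the 3 S211A+MDFIC vehicle arrays and on 0 of the 3 S211A vehicle arrays. It entered the test only through its Dex groups, so that these counts partly restate the filter. The lack of overlap and the tests of a rise at this probe are not independent of that filter either. In S211A cells the means differed 3.56-fold in the reported setting, with vehicle signals taken as no lower than the dimmest probe still above background. This lower bound does not allow for the spread between arrays. The fitted log2 difference was 2.37 (SE 0.64, limma adjusted p = 0.062). The fitted difference was smaller with normexp background correction, at 0.68, and without S211A Dex replicate 1, at 1.75, and passed in neither. In S211A+MDFIC cells the fitted log2 difference was 1.35 (SE 0.64, limma adjusted p = 0.214). In the reported setting neither kind of cells passed the test. The 95% intervals were 0.94 to 3.81 in S211A cells and -0.08 to 2.79 in S211A+MDFIC cells. Both are wide and hold the values of the brighter probe, and the interval in S211A+MDFIC cells also holds 0. S211A Dex replicate 1, the highest array, lay on slide 1 and S211A+MDFIC vehicle replicate 3 on slide 3. When slide was fitted as a fixed block, the difference was -0.08 in S211A+MDFIC cells (limma adjusted p = 0.943) and 3.62 in S211A cells (limma adjusted p = 0.00122), the same value as within slide 1 (limma adjusted p = 0.0474). Both values in S211A cells set the single array of S211A Dex replicate 1 against the vehicle arrays, and the value in S211A+MDFIC cells has vehicle replicate 3 as its single vehicle array. With all 3 Dex arrays, the difference of 2.37 passed in limma with trend and robust moderation of the variance (0.0339) and without S211A+MDFIC vehicle replicate 3 (0.0237). That array is in neither S211A group, so that leaving it out lowered the SE (0.475) and left the difference as it was.

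SPRED1 was measured by a brighter and a dimmer probe. At the brighter one, A_24_P107859, the levels were -0.71, -0.76 and -0.87 on the S211A+MDFIC Dex arrays, against -0.45, -0.48 and -0.37 on the S211A+MDFIC vehicle arrays. They were -0.60, -0.70 and -0.52 on the S211A Dex arrays, against -0.38, -0.34 and -0.32 on the S211A vehicle arrays. In both kinds of cells all Dex arrays lay below all vehicle arrays. The means were -0.78 ± 0.08 under Dex and -0.43 ± 0.06 under vehicle in S211A+MDFIC cells (SD, n = 3 each), a log2 difference of -0.35 (SE 0.06, limma adjusted p = 0.00835). In S211A cells they were -0.61 ± 0.09 under Dex and -0.34 ± 0.03 under vehicle (SD, n = 3 each), a log2 difference of -0.26 (SE 0.06, limma adjusted p = 0.0376).

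The dimmer SPRED1 probe, A_23_P54460, showed smaller differences, of -0.14 in S211A+MDFIC cells and -0.15 in S211A cells (SE 0.16 for each, limma adjusted p = 0.622 and 0.676). Its levels overlapped between the groups, with a range of -3.49 to -3.07 on the S211A+MDFIC Dex arrays and -3.33 to -3.06 on the S211A+MDFIC vehicle arrays. On the S211A Dex arrays they ran from -3.45 to -3.24, and on the S211A vehicle arrays from -3.60 to -3.04. The 95% intervals of its differences, -0.51 to 0.22 in both kinds of cells, hold 0 as well as the falls seen at the brighter probe.

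With slide as a fixed block its brighter probe stood at -0.41 in S211A+MDFIC cells (limma adjusted p = 0.0793) and at -0.26 in S211A cells (limma adjusted p = 0.275). Within slide 3 it stood at -0.41 with MDFIC (limma adjusted p = 0.539), and within slide 1 at -0.26 without MDFIC (limma adjusted p = 0.308). Neither call held without scaling (-0.39 with MDFIC and -0.29 without it) or with only the compared groups in the fit (-0.35 and -0.26). The call in S211A cells also ended without S211A vehicle replicate 1 (limma adjusted p = 0.0849), replicate 2 (0.109) or replicate 3 (0.108), without S211A Dex replicate 1 (0.0704) or replicate 2 (0.123), and without S211A+MDFIC vehicle replicate 1 (0.0657) or replicate 2 (0.055). It also ended with normexp background correction (0.0682), quantile normalization (0.0551), median centring (0.056) and no filter on dim probes (0.0644).

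SPRED2 was measured by probe A_32_P225854 on all 12 arrays. Its levels were -1.40, -1.60 and -1.51 on the S211A+MDFIC Dex arrays, against -1.30, -1.32 and -1.37 on the S211A+MDFIC vehicle arrays, so that these groups did not overlap. They were -1.66, -2.01 and -1.54 on the S211A Dex arrays, against -1.74, -1.46 and -1.32 on the S211A vehicle arrays, which did overlap. The log2 differences of -0.18 with MDFIC and -0.23 without it did not pass (SE 0.13 for each, limma adjusted p = 0.428 and 0.39). Their 95% intervals ran from -0.47 to 0.12 and from -0.52 to 0.07. The other SPRED2 probe, A_24_P315535, was well above background on 2 of the 12 arrays, S211A+MDFIC Dex replicate 3 and S211A+MDFIC vehicle replicate 2, and was not tested.

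SPRY2 (probe A_23_P128698) was lowest under Dex with MDFIC. Its levels were -0.49, -0.59 and -0.64 on the S211A+MDFIC Dex arrays, against -0.38, -0.28 and -0.20 on the S211A+MDFIC vehicle arrays. All Dex arrays lay below all vehicle arrays there, with means of -0.57 ± 0.08 and -0.29 ± 0.09 (SD, n = 3 each) and a log2 difference of -0.28 (SE 0.06, limma adjusted p = 0.0218). In S211A cells the levels were -0.41, -0.34 and -0.43 on the Dex arrays, against -0.44, -0.37 and -0.47 on the vehicle arrays. These groups overlapped, and the difference of 0.03 (SE 0.06, 95% interval -0.11 to 0.17, limma adjusted p = 0.845) did not pass. The call in S211A+MDFIC cells ended with slide as a fixed block (-0.37, limma adjusted p = 0.098), within slide 3 (-0.37, 0.595), without scaling (-0.33, 0.297), and with only the compared groups in the fit (-0.28, 0.102). It also ended without S211A+MDFIC vehicle replicate 2 (0.0757) or replicate 3 (0.0745) and without S211A+MDFIC Dex replicate 3 (0.0837).

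SPRY4 (probe A_24_P269062) spread most on the S211A+MDFIC Dex arrays, with an SD of 0.19, against 0.02 in each other group (n = 3 each). Its levels were -1.95, -2.33 and -2.15 on the S211A+MDFIC Dex arrays, against -2.12, -2.12 and -2.08 on the S211A+MDFIC vehicle arrays. They were -2.10, -2.13 and -2.14 on the S211A Dex arrays, against -2.10, -2.07 and -2.05 on the S211A vehicle arrays. The S211A groups did not overlap, though their closest arrays stood at -2.099 under Dex and -2.097 under vehicle. The log2 difference was -0.04 with MDFIC (95% interval -0.22 to 0.14) and -0.05 without it (95% interval -0.23 to 0.13), and neither passed (limma adjusted p = 0.815 and 0.803). A change of the size seen for ERRFI1 lies outside these intervals.

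**Figure D2:**
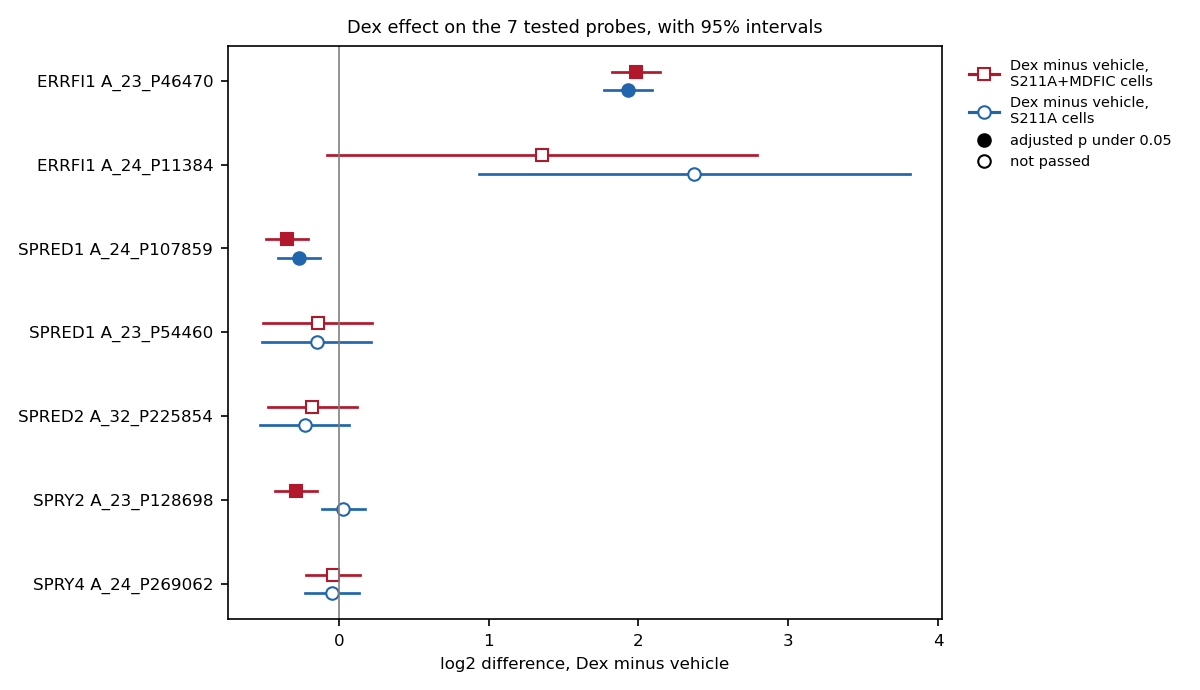
Log2 difference of Dex minus vehicle for each tested probe, in S211A+MDFIC cells (squares) and S211A cells (circles), with 95% intervals and filled symbols where the adjusted p is under 0.05. The brighter ERRFI1 probe stands at 1.98 and 1.93, and the SPRED, SPRY2 and SPRY4 probes all lie between -0.35 and 0.03.

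Set beside all probes, the median log2 difference under Dex over the 7 probes was -0.14 in S211A+MDFIC cells, against 0.04 over all probes. In S211A cells it was -0.05, against 0.02 over all probes. The groups did not overlap for 1 higher and 3 lower probes of the 7 in S211A+MDFIC cells, where this held for 18.3% (higher) and 13% (lower) of all probes. In S211A cells 2 were higher and 2 lower without overlap, against 14.4% and 11.4% of all probes. Of the 2 higher, 1 was the dim ERRFI1 probe, which entered the test only through its Dex groups.

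**Figure D3:**
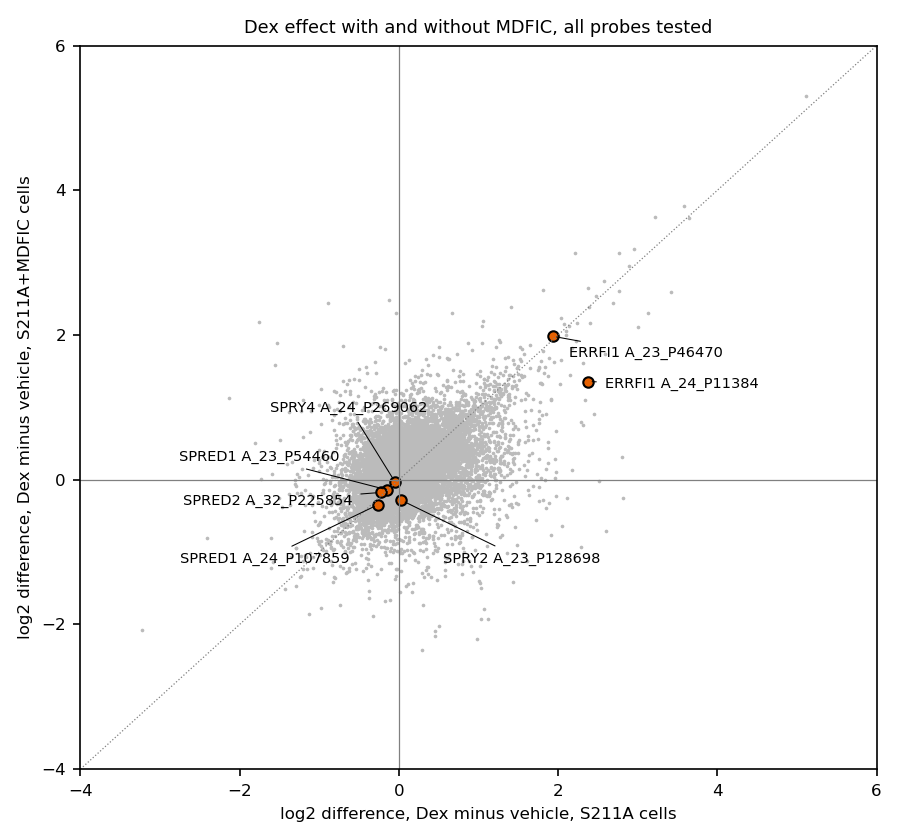
Log2 difference of Dex minus vehicle for all 31224 probes tested, in S211A cells (horizontal) and S211A+MDFIC cells (vertical), each grey point 1 probe, with the 7 probes of these genes in orange and equal differences on the dotted line. The ERRFI1 probes lie at the upper right, at 1.93 and 1.98 for A_23_P46470 and at 2.37 and 1.35 for A_24_P11384, while the others lie within the cloud near 0.

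The next question was whether MDFIC altered these responses. For none of the 7 probes did the difference between the Dex responses, with MDFIC minus without it, pass the test, and 0.186% of all probes passed it. The brighter ERRFI1 probe differed by 0.05 (SE 0.10, limma adjusted p = 0.872), with a 95% interval of -0.17 to 0.28. A response larger by more than 0.28 with MDFIC, on the log2 scale, lies outside that interval, which takes no account of slide. Fitted with slide as a fixed block, the difference at this probe was 0.18, resting on 1 array in an arm of each Dex response. No interval is given for that fit, so that the bound of 0.28 is not shown to hold with slide fitted. SPRY2 had a difference of -0.31 (SE 0.09, 95% interval -0.51 to -0.11). It was the only one of the 7 with an unadjusted p under 0.05, which 2920 of all 31224 probes had. Its p of 0.00588 became 0.337 after adjustment over all probes in limma. The Dex response of SPRY2 is thus not shown to differ between cells with and without MDFIC. The brighter SPRED1 probe differed by -0.08 (95% interval -0.28 to 0.12), SPRED2 by 0.05 (-0.37 to 0.47) and SPRY4 by 0.01 (-0.24 to 0.27). The dim ERRFI1 probe had the widest interval, -3.05 to 1.01 around -1.02. With slide as a fixed block its difference was -3.69 (limma adjusted p = 0.0367), a value in which S211A Dex replicate 1 and S211A+MDFIC vehicle replicate 3 each stand alone for their group, while all 3 S211A vehicle arrays are not well above background.

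Under Dex, S211A+MDFIC and S211A cells were compared directly. The levels of these 7 probes gave 0 calls in limma, where 0.288% of all probes were called. While 4035 of all 31224 probes had an unadjusted p under 0.05, so did 2 of the 7. These were SPRY2, with means of -0.57 in S211A+MDFIC Dex and -0.39 in S211A Dex (log2 difference -0.18, SE 0.06, limma adjusted p = 0.306), and the brighter SPRED1 probe, with means of -0.78 and -0.61 (-0.17, SE 0.06, limma adjusted p = 0.319). For both, all S211A+MDFIC arrays lay below all S211A arrays, as for 7.65% of all probes. The brighter ERRFI1 probe had all S211A+MDFIC arrays above all S211A arrays, as for 6.94% of all probes, at means of 4.003 and 3.85 (0.16, SE 0.07, limma adjusted p = 0.399). SPRED2 stood at -1.51 in S211A+MDFIC Dex and -1.74 in S211A Dex, a difference of 0.23 that also did not pass (SE 0.13, limma adjusted p = 0.471).

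Under vehicle, limma called 0 of the 7 probes between S211A+MDFIC and S211A cells, where 0.753% of all probes were called. An unadjusted p under 0.05 was found for 0 of the 7 and for 5032 of all 31224 probes. The groups overlapped at all 7, while they did not overlap at 28.3% of all probes. The closest was SPRY2, at -0.29 ± 0.09 in S211A+MDFIC vehicle and -0.42 ± 0.05 in S211A vehicle (SD, n = 3 each; log2 difference 0.14, SE 0.06, limma adjusted p = 0.333). The brighter ERRFI1 probe stood at 2.02 ± 0.11 in S211A+MDFIC vehicle and 1.92 ± 0.05 in S211A vehicle (SD, n = 3 each), a difference of 0.10 with a 95% interval of -0.06 to 0.26. No slide held both groups of either MDFIC comparison. With slide as a fixed block 0 of the 7 passed in either, where 13 of all 31224 probes passed under Dex and 96 under vehicle. Since that fit reaches both comparisons only through the other groups, the 0 does not show that MDFIC had no effect.

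**Figure D4:**
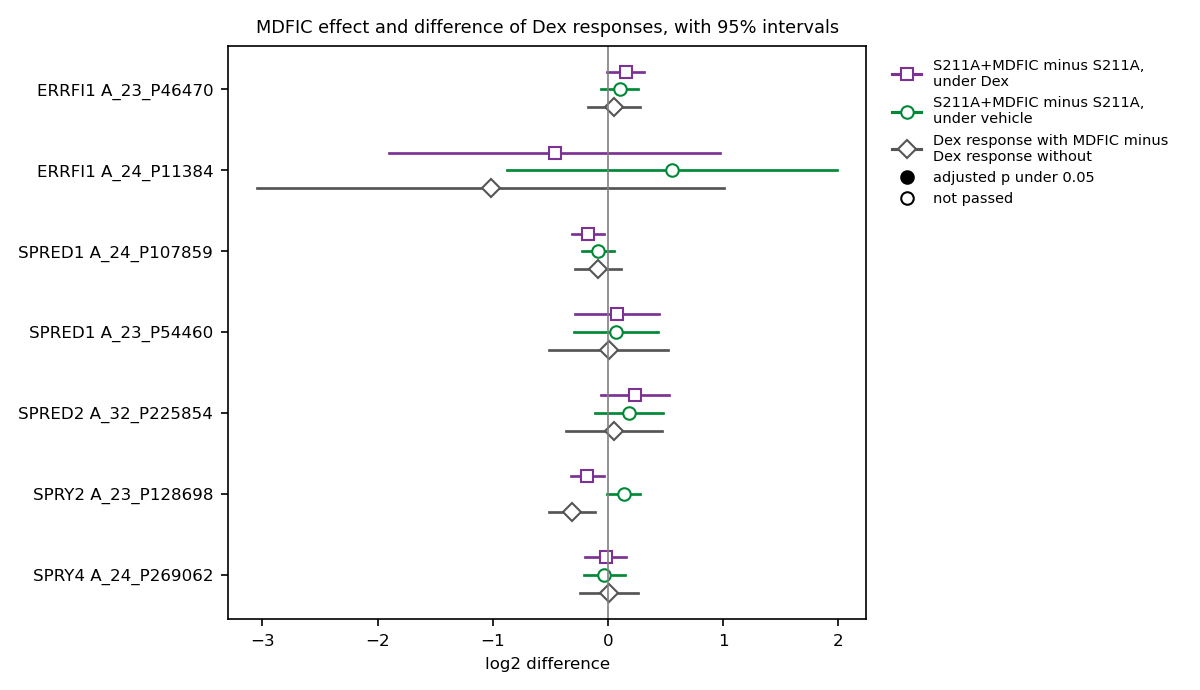
Log2 difference of S211A+MDFIC minus S211A cells under Dex (squares) and under vehicle (circles), and the Dex response with MDFIC minus the Dex response without it (diamonds), for each tested probe with 95% intervals. No symbol is filled, since no adjusted p is under 0.05, and the interval of the dim ERRFI1 probe, -3.05 to 1.01 for the diamond, is the widest.

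Ordered by level, the 4 groups fell into a lower and a higher pair for the brighter ERRFI1 probe. S211A vehicle (1.92) and S211A+MDFIC vehicle (2.02) were not shown to differ, S211A Dex (3.85) was higher on every array than both, and S211A+MDFIC Dex (4.003) was not shown to differ from S211A Dex. For the brighter SPRED1 probe the order was the reverse, with S211A+MDFIC Dex (-0.78) and S211A Dex (-0.61) below S211A+MDFIC vehicle (-0.43) and S211A vehicle (-0.34). For SPRY2 the order from low to high was S211A+MDFIC Dex (-0.57), S211A vehicle (-0.42), S211A Dex (-0.39) and S211A+MDFIC vehicle (-0.29), where S211A Dex and S211A vehicle were not shown to differ and the other neighbours were not tested against each other.

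The probe of these genes whose group means spanned the widest range was, in the reported setting, the dim ERRFI1 probe, with a range of 2.37 down to a group that was not well above background. With normexp its Dex difference in S211A cells was 0.68, against 1.95 for A_23_P46470, so that its place depends on the background correction. Outside the 6 genes, the accessions whose levels followed the dim probe most closely over the 12 arrays were NM_001409 (Pearson r = 0.925) and NM_152503 (r = 0.924). The 12 arrays fall into 4 groups on shared slides, so that these values describe a likeness and are no test.

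**Figure D5:**
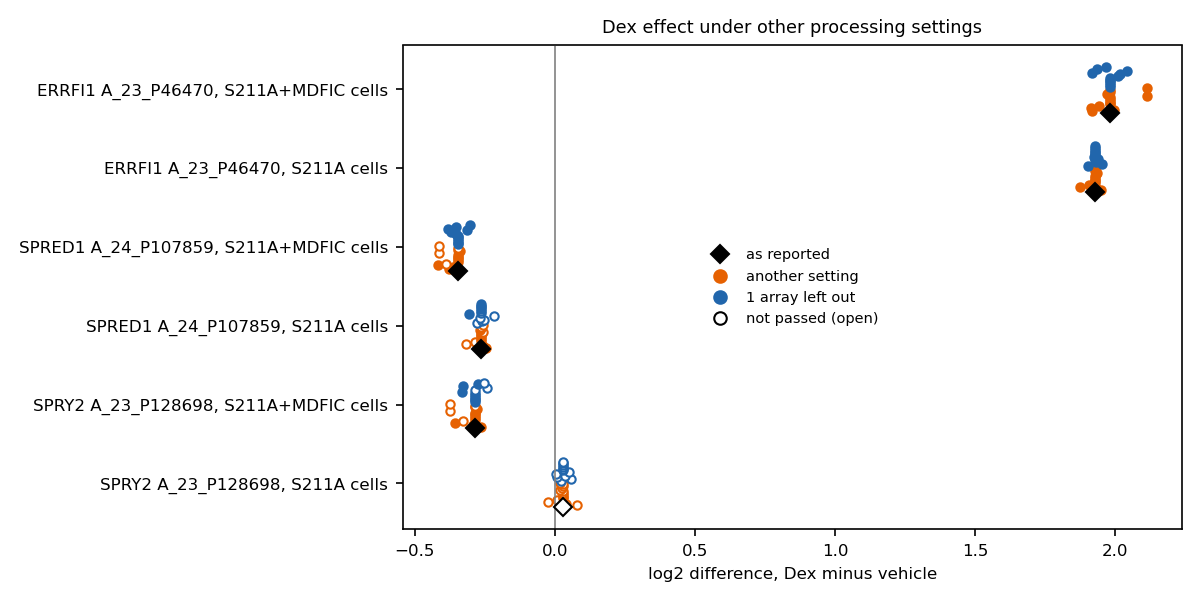
Log2 difference of Dex minus vehicle for 3 probes under the reported setting (diamonds), other settings (orange) and with 1 array left out (blue), filled where the adjusted p is under 0.05. ERRFI1 A_23_P46470 stays between 1.88 and 2.11 and passes throughout. In S211A+MDFIC cells SPRED1 lies between -0.42 and -0.30 and SPRY2 between -0.37 and -0.24, each with open symbols at some settings. In S211A cells SPRED1 lies between -0.32 and -0.22 and passes under 10 of 26 alternatives. SPRY2 lies between -0.02 and 0.08 there and passes under 0 of 26.

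The rise of ERRFI1 at A_23_P46470 passed under all 26 alternatives in both kinds of cells, between 1.91 and 2.11 in S211A+MDFIC cells and between 1.88 and 1.95 in S211A cells. The fall of SPRED1 at A_24_P107859 passed under 22 of 26 in S211A+MDFIC cells (-0.42 to -0.30) and under 10 of 26 in S211A cells (-0.32 to -0.22). The fall of SPRY2 in S211A+MDFIC cells passed under 19 of 26 (-0.37 to -0.24).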

How the data were processed

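Processed signals of 12 one-colour arrays were deposited by the authors as intensity values on a linear scale, the output of Agilent's Feature Extraction software (per the file headers version 12.0.0.7; the submitters' processing notes give 12), with the background subtracted within each array. The deposited flags for background, saturation and outliers are coded 0 or 1 in the files, and the annotation build of the array design is hg19, per the file headers. No spot was saturated. A table of the whole series, also deposited, held the same intensity values, unscaled and uncentred, with medians of 82.3 to 110.8. Signals were taken to log2 and the array's 75th percentile over 43376 non-control spots was subtracted. The 1656 outlier spots were set to missing and spots of 1 probe averaged. A probe was tested if it was above background on each of the 3 arrays in 1 group or more and had 2 or more values in each group (31224 of 41000).

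Contrasts of 4 group means over 12 arrays were fitted per probe with limma 3.58.1 (R 4.3.3), two-sided, and adjusted by Benjamini-Hochberg over all probes. A probe was called at an adjusted p under 0.05. Differences are Dex minus vehicle or S211A+MDFIC minus S211A. The p-values set each difference against the spread between arrays within the groups, moderated over all probes. In the reported setting slide is not part of the fit. For a lower bound on a fold, each array of a dim group was given its probe signal or, if higher, that of its dimmest probe still above background, and these were averaged and set against the mean of the bright group. On simulated arrays of 31128 probes, changes of log2 0.5 and 1 were recovered in 50% and 75% for Dex in S211A cells, 47% and 72% for Dex in S211A+MDFIC cells and 20% and 57% where the responses to Dex differed. In each simulation only 100 probes changed at each size and the slides did not differ. The recovery in these data may therefore be different. The genes named are all those of the list, with the 2 accessions most like the member probe of widest range. The members and lists were chosen with earlier results of these data known. Lists of pathway genes and cell type markers by symbol were not used here, as the files give no symbols. Figures were drawn with matplotlib 3.10.9. The alternatives were normexp with an offset of 50 on the median spot signals, other scalings, filters and variance models, slide or replicate as a block, and each array left out.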

Additional observations from a re-analysis of the deposited data

How the results depend on the processing

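Among 26 alternatives, limma called 1 probe of the 7 for Dex in S211A cells, in place of 2, with normexp, quantile normalization, median centring, no scaling, no filter on dim probes, the replicate block or only the groups compared, and 1 to 3 with an array left out. For Dex in S211A+MDFIC cells it called 1 in place of 3 without scaling, with slide as a fixed block, with only the groups compared or within slide 3, and 2 to 3 with an array left out. For the difference between the Dex responses 1 in place of 0 passed with slide as a fixed block, the dim ERRFI1 probe A_24_P11384 (log2 -3.69, adjusted p = 0.0367), on 1 array in an arm of each Dex response. The MDFIC comparisons gave 0 throughout. Over all probes, counts ran from 244 to 2245 (1929 reported) for Dex in S211A, from 89 to 5721 (2983) for Dex in S211A+MDFIC, from 68 to 1829 (235) for MDFIC under vehicle, from 9 to 672 (90) for MDFIC under Dex and from 0 to 184 (58) for the difference. Without scaling the median of all probes shifted by 0.12 in both MDFIC comparisons. Replicate numbers were tested as pairs: deviations of same-numbered arrays correlated between -0.248 and 0.238, so the numbers are not taken to pair the samples. With the replicate block the count over all probes was 1548 for Dex in S211A, 2495 for Dex in S211A+MDFIC, 113 for MDFIC under vehicle, 60 for MDFIC under Dex and 36 for the difference, the SPRED1 probe A_24_P107859 did not pass for Dex in S211A (-0.26, adjusted p = 0.0718), and 16 of 36 comparisons of an array with another group were highest at its own number. Over all probes, 1288 rose and 641 fell for Dex in S211A, against 867 and 809 with median centring and 521 and 98 without scaling. For Dex in S211A+MDFIC 1833 rose and 1150 fell, against 1170 and 1112 and against 523 and 128. The causes of these changes were not tested.

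Of 866 values of single probes, 38 changed sign, none of them past the threshold before or after. For Dex in S211A, SPRY2 stood at -0.02 with median centring. For Dex in S211A+MDFIC, with slide as a fixed block and within slide 3, A_23_P54460 (SPRED1) stood at 0.033 and A_24_P11384 (ERRFI1) at -0.079. For MDFIC under vehicle, normexp gave -0.045 for A_23_P54460 and -0.12 for A_24_P11384, and no scaling gave 0.10 for SPRY4 and 0.044 for A_24_P107859 (SPRED1). For MDFIC under Dex, normexp gave -0.069 for A_23_P54460 and no scaling 0.093 for SPRY4. For the difference between the Dex responses, A_23_P54460 stood at -0.024 with normexp, -0.015 with quantile normalization, -0.010 with median centring, -0.011 without scaling and -0.030 with slide as a random block. There SPRY4 stood at -0.009 with quantile normalization, -0.005 with median centring, -0.007 without scaling and -0.035 with slide as a fixed block, and A_23_P46470 (ERRFI1) at -0.033 with normexp. With 1 array left out, sign changes fell within these ranges: SPRY4 -0.131 to 0.058 for Dex in S211A+MDFIC, A_23_P54460 -0.112 to 0.169 and A_24_P11384 -0.16 to 1.004 for MDFIC under vehicle, A_24_P11384 -0.898 to 0.159, A_23_P54460 -0.036 to 0.174 and SPRY4 -0.116 to 0.073 for MDFIC under Dex. For the difference they were -0.108 to 0.191 for A_23_P54460, -0.087 to 0.168 for SPRED2, -0.012 to 0.113 for A_23_P46470 and -0.084 to 0.105 for SPRY4. Signal over background limits A_24_P11384 and A_24_P315535.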
